A study of Homo sapiens with 6 samples.

Results

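Kinesins are motor proteins that use ATP to move along microtubules or to take their ends apart. Of the 28862 genes listed in the count table, 45 met the choice made here: protein-coding genes whose symbol starts with KIF and a digit or C, the motor chains, or with KLC and a digit, the light chains of the conventional kinesin. By known role 13 were grouped as mitotic and 19 as transport kinesins, 5 act on microtubule dynamics or in signalling, 6 work in cilia or sperm tails and 2 were left without a class. After the filter on low counts 41 were tested: 12 mitotic, 19 transport, 5 of microtubule dynamics and signalling, and 5 ciliary. KIF2B, a mitotic kinesin by name, was not analysed here.

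Mitotic kinesins build the spindle, align chromosomes and cut the dividing cell apart; their transcripts are made mainly late in the cell cycle. Transport kinesins carry mitochondria, vesicle precursors, endosomes and mRNA granules outward along axons and dendrites, and neurons, which no longer divide, depend on them. SH-SY5Y cells divide in culture while keeping a neuron-like character, so they express both classes.

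The cells were SH-SY5Y, a cloned human neuroblastoma line, given either a plasmid for SMN1 overexpression or a control plasmid, with 3 libraries per group. The sources used here do not name the promoter of the plasmids or the time after transfection. The first group is called SMN1-labelled, because SMN1 itself, the gene of the survival motor neuron protein, was at 14.8, 16.6 and 16.6 CPM in the SMN1-labelled libraries, against 20.0, 20.4 and 19.6 CPM in the control libraries (edgeR log2 fold change -0.32 with SE 0.061, adjusted p = 9.40e-05). The groups did not overlap, and SMN2, whose reads can hardly be told from those of SMN1, was lower too (edgeR log2 fold change -0.30 with SE 0.082, adjusted p = 0.0031). The counts thus do not show the labelled overexpression, and whether the labels match the libraries, or the plasmid's transcript would be counted under SMN1, was not tested. All directions below are between libraries as labelled. Libraries held 30379242 to 40275498 reads. The labels do not say whether the 3 libraries of each group are separate cultures, and p-values here describe a spread that may be only technical. Of 8 markers of adrenergic neuroblastoma, 7 were tested, with summed levels of 4935 to 5168 CPM in the SMN1-labelled and 4814 to 4967 CPM in the control libraries, whereas TH, tyrosine hydroxylase, had at most 9 reads in any library. Markers of the mesenchymal state of neuroblastoma were lower in sum, at 625 to 694 CPM in the SMN1-labelled and 805 to 840 CPM in the control libraries, with 5 of 8 lower and 0 higher by the edgeR test, against 28.2% and 28% of all genes tested. None was at 0, and YAP1 was the lowest. The part of these markers in the results below was not tested.

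The mitotic kinesins that changed were lower, and most transport kinesins that changed were higher. Of 12 mitotic kinesins tested, 7 were lower and 0 higher in the SMN1-labelled libraries, and of 19 transport kinesins 11 were higher and 4 lower, at an edgeR quasi-likelihood adjusted p of at most 0.05. Over all 15829 genes tested, 28.2% were lower and 28% higher by the same rule. Among the 13201 protein-coding genes tested, 3856 were lower and 4162 higher. The count of 0 mitotic kinesins higher rests on the grouping. KIF2A, which also acts at spindle poles, was placed outside the mitotic class and was called higher. Of all 41 kinesins tested 28 were called, 13 higher and 15 lower, against 56.2% of all genes. Groups did not overlap in CPM for 8 mitotic kinesins that were lower, against 30.2% of all genes, and for 11 transport kinesins that were higher, against 30.4%. Of the calls among kinesins 46.4% were higher on counts and 57.7% on the authors' FPKM (limma on log2(FPKM + 1)), against 49.8% and 62.6% of calls over all genes. The median log2 fold change was -0.19 over mitotic and 0.12 over transport kinesins, and 0.00 (0.0009) over all genes tested. Changes were small: 4 of the 41 kinesins tested were called lower by 1.5-fold or more, against 7.76% of all genes, and 0 were called higher by that much, against 4.31%. The 4 were KIF22, KIF21B, KIF26A and KLC3. Levels below are CPM, read counts scaled by TMM-adjusted library size, or the authors' FPKM, which also divides by gene length. FPKM is used where genes are compared with each other. No source used here names its lengths, so comparisons between genes rest on unknown lengths.

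**Figure D1:**
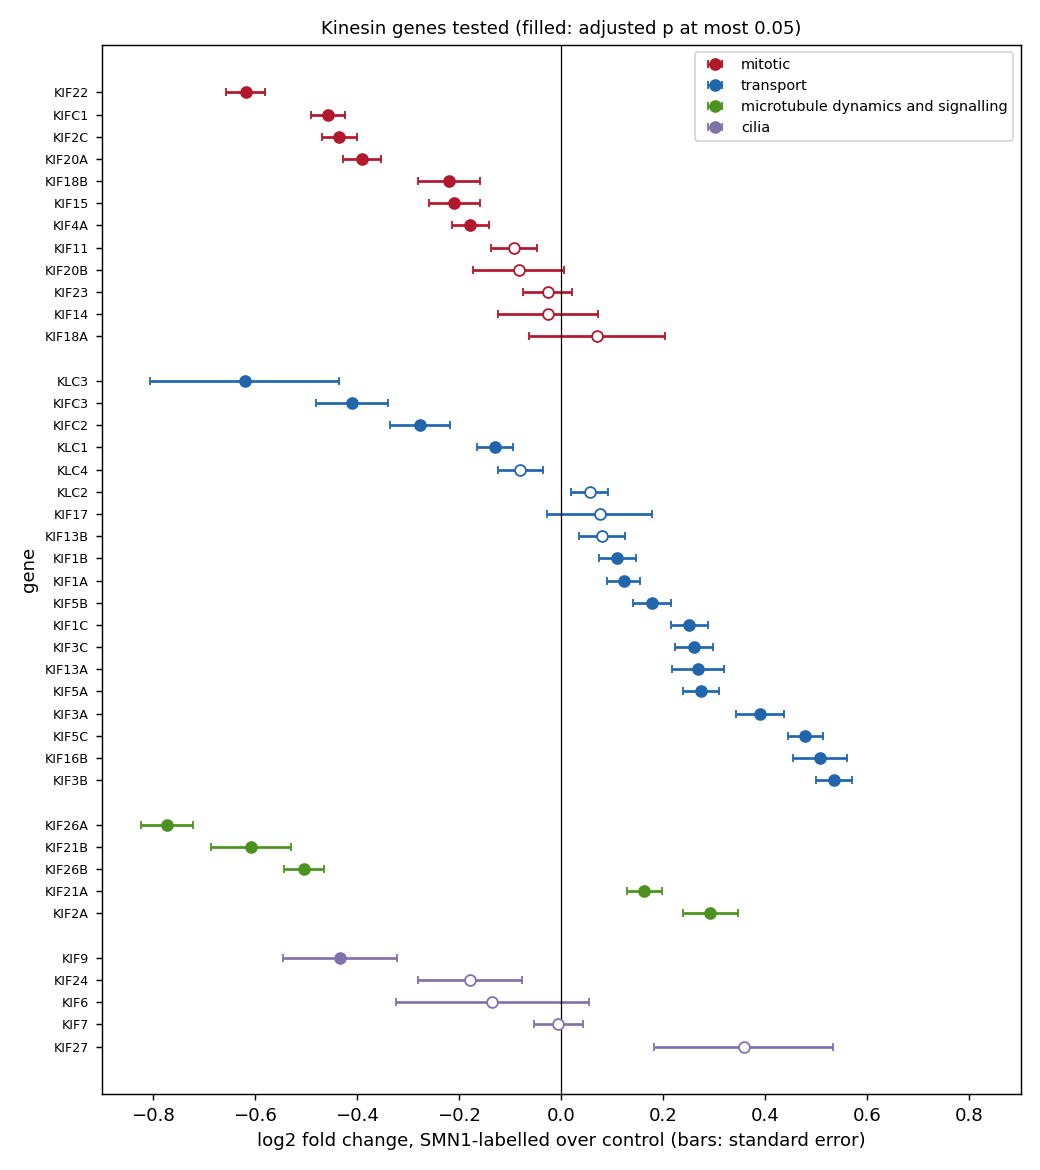
Log2 fold change of each kinesin gene tested, SMN1-labelled over control, with its standard error; filled points passed an adjusted p of 0.05 and open points did not. The 7 mitotic kinesins called lie left of 0 and 11 of the 15 transport kinesins called lie right of it.

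**Figure D2:**
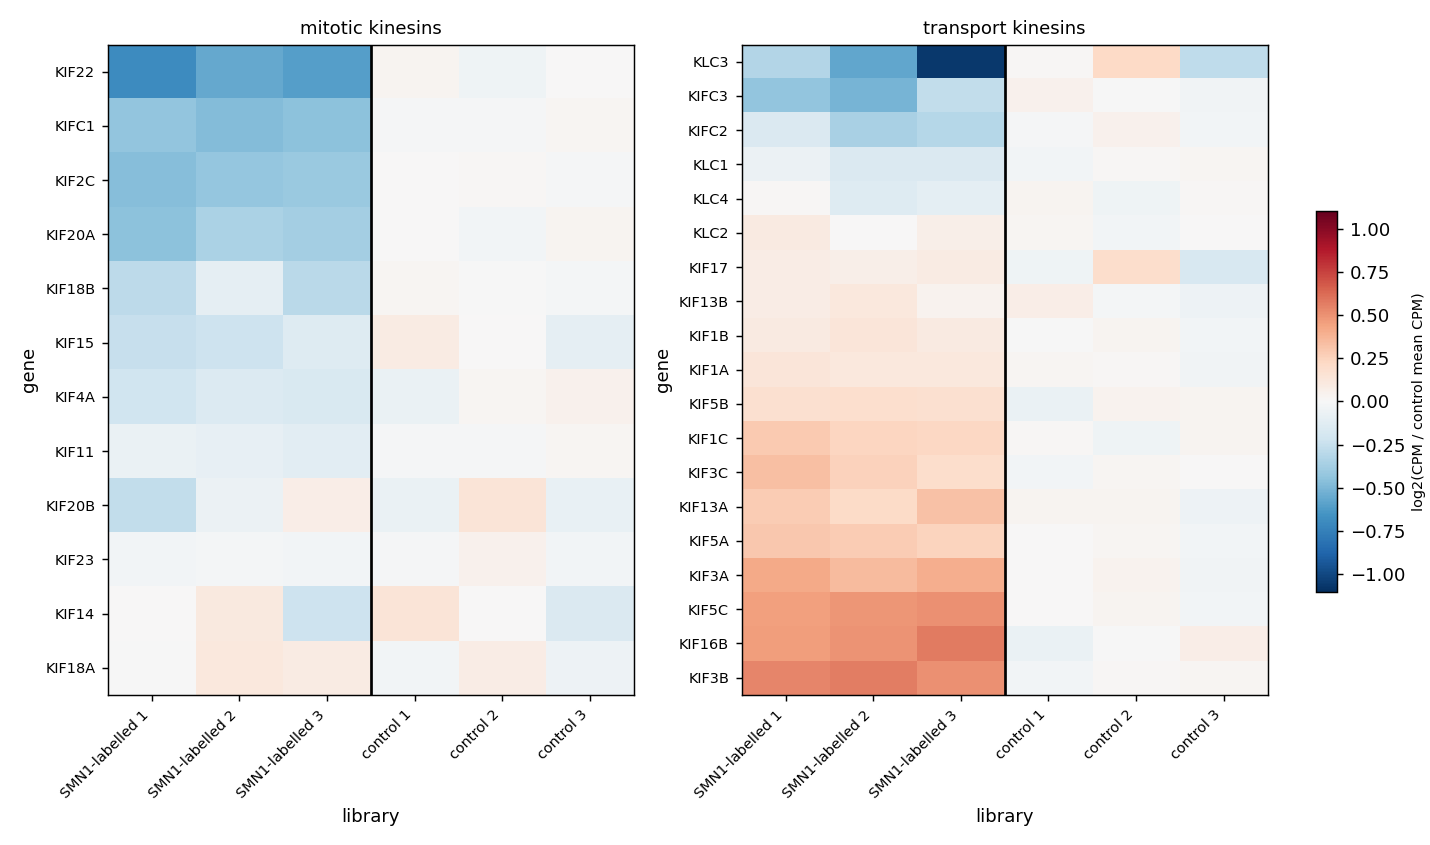
Level of each tested mitotic (left) and transport (right) kinesin in each library, as log2 of its CPM over the control mean; rows run by fold change and the black line parts SMN1-labelled from control libraries. The rows for KIF22, KIFC1, KIF2C and KIF20A are lower in all 3 SMN1-labelled libraries, and those for KIF3B, KIF16B, KIF5C and KIF3A higher.

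The most abundant mitotic kinesins fell. By FPKM the control libraries ranked KIFC1 first among all members, followed by KIF4A and KIF2C, whose ranges overlapped, and KIF22 and KIF20A were the fifth and the sixth. These 5 genes supplied 88.6% of the summed mitotic FPKM in the SMN1-labelled and 90.4% in the control libraries. In the SMN1-labelled libraries KIFC1 still ranked first, with KIF3C, a transport kinesin, next and overlapping it in range. KIF22, a chromokinesin that pushes chromosome arms away from the poles, had the largest fall of the 12 tested. It was at 98.0, 107 and 104 CPM in the SMN1-labelled libraries, against 162, 154 and 159 CPM in the control libraries, 1.53-fold lower (edgeR log2 fold change -0.62 with SE 0.038, adjusted p = 3.09e-12). It lies at chr16:29790719-29805385, plus strand in GENCODE v29 on GRCh38. KIFC1, a minus-end-directed motor that bundles spindle microtubules and clusters extra centrosomes, was at 165, 160.0 and 163 CPM in the SMN1-labelled libraries, against 222, 221 and 226 CPM in the control libraries (edgeR log2 fold change -0.46 with SE 0.033, adjusted p = 5.50e-11). For both genes the groups were far apart relative to the spread within them. In bulk RNA, fewer cells in mitosis and less of these mRNAs per cell cannot be told apart. Other annotated genes cover 13.01% of the exonic length of KIF22 and 12.7% of that of KIFC1.

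KIF2C, also called MCAK, removes tubulin from microtubule ends at the centromere and so helps correct faulty attachments. Its level was 121, 124 and 125 CPM in the SMN1-labelled libraries, against 166, 168 and 165 CPM in the control libraries, 1.35-fold lower (edgeR log2 fold change -0.43 with SE 0.034, adjusted p = 1.79e-10). KIF20A, the motor that brings the chromosomal passenger complex to the midzone for cytokinesis, was at 97.7, 105 and 103 CPM in the SMN1-labelled libraries, against 134, 131 and 136 CPM in the control libraries (edgeR log2 fold change -0.39 with SE 0.037, adjusted p = 4.30e-09). No SMN1-labelled library reached the lowest control library for either gene. KIF4A, the chromokinesin that sets the length of the midzone with PRC1, was at 184, 193 and 189.6 CPM in the SMN1-labelled libraries, against 203, 216 and 220.3 CPM in the control libraries, a smaller fall of 1.13-fold (edgeR log2 fold change -0.18 with SE 0.037, adjusted p = 2.40e-04). KIF15, which can take over from KIF11 in keeping spindles bipolar, was at 32.5, 33.0 and 35.2 CPM in the SMN1-labelled libraries, against 41.2, 39.0 and 36.2 CPM in the control libraries (edgeR log2 fold change -0.21 with SE 0.050, adjusted p = 0.0011). KIF18B, which works at the ends of astral microtubules, was at 17.3, 19.6 and 17.1 CPM in the SMN1-labelled libraries, against 21.3, 21.0 and 20.8 CPM in the control libraries (edgeR log2 fold change -0.22 with SE 0.061, adjusted p = 0.00352). For KIF15 the highest SMN1-labelled library and the lowest control library were close, and for KIF18B the gap was wider. On the authors' FPKM, KIF4A, KIF15 and KIF18B were not called, with limma adjusted p = 0.06, 0.132 and 0.0757 on log2(FPKM + 1), so that 4 mitotic kinesins were lower on that scale, where 23.7% of all genes tested were.

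The remaining 5 tested mitotic kinesins did not pass the test. KIF11, the Eg5 motor that slides spindle poles apart and the target of several antimitotic drugs, was at 31.5, 31.1 and 30.5 CPM in the SMN1-labelled libraries, against 32.7, 32.9 and 33.7 CPM in the control libraries. Its groups did not overlap, but the difference was small (edgeR log2 fold change -0.09 with SE 0.045, adjusted p = 0.0872). It passed with upper-quartile factors (adjusted p = 0.0461) and with a filter of 1 CPM (adjusted p = 0.0486). KIF23, the motor of the centralspindlin complex, was at 26.2, 26.3 and 26.2 CPM in the SMN1-labelled libraries, against 26.5, 27.5 and 26.1 CPM in the control libraries (edgeR log2 fold change -0.03 with SE 0.049, adjusted p = 0.67). KIF14, KIF18A and KIF20B had log2 fold changes of -0.03, 0.07 and -0.08 with SE 0.098, 0.13 and 0.089, at 2.62 to 11.4 CPM in single libraries. KIF4B, an intron-less relative of KIF4A, had 3 to 6 reads in the SMN1-labelled and 3 to 8 reads in the control libraries and was not tested. Only 2 of its 4229 windows of 150 nt, the read length, also occur in KIF4A transcripts.

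Mitotic partners of these motors, from a list drawn up by role, were also mostly lower: 12 of 16 tested were lower and 1 higher, against 28.2% and 28% of all genes tested, with a median log2 fold change of -0.21. AURKB, the kinase of the chromosomal passenger complex, was at 35.1, 36.0 and 36.8 CPM in the SMN1-labelled libraries, against 63.6, 61.1 and 59.7 CPM in the control libraries, 1.71-fold lower (edgeR log2 fold change -0.77 with SE 0.042, adjusted p = 3.83e-13). BIRC5, survivin, a subunit of that complex, was 1.30-fold lower (edgeR log2 fold change -0.38 with SE 0.035, adjusted p = 3.21e-09). TPX2, a spindle assembly factor, was 1.29-fold lower (edgeR log2 fold change -0.36 with SE 0.033, adjusted p = 1.79e-09). CENPE, a kinesin of the kinetochore whose symbol keeps it outside the members, was at 11.8, 12.8 and 12.5 CPM in the SMN1-labelled libraries, against 15.9, 14.9 and 15.7 CPM in the control libraries (edgeR log2 fold change -0.32 with SE 0.066, adjusted p = 2.00e-04). The exception was CDK1, the main mitotic kinase, named after its value was seen, at 26.5, 28.4 and 24.9 CPM in the SMN1-labelled libraries, against 21.5, 19.9 and 26.5 CPM in the control libraries (edgeR log2 fold change 0.24 with SE 0.074, adjusted p = 0.00797), where the groups overlapped.

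Promoters of mitotic kinesins shared short sequences that transport kinesin promoters mostly lacked. RefSeq windows on GRCh38.p14, from 250 bases before to 50 after the start, matched 35 of the 45 members, 13 mitotic and 13 transport ones among them. Members KIF13B, KIF19, KIF21B, KIF26B, KIF27, KIF5A, KIFC2, KIFC3, KLC2 and KLC4 had no entry. Some windows lie inside the gene as annotated in GENCODE v29, such as those of the transport kinesins KIF5C, KLC1 and KLC3. For these the sequence at the annotated gene start was not searched. Searched on both strands were TTTGAA, a core of the element known as the cell cycle genes homology region, and CCAAT, the box that NF-Y binds. The 2 motifs can share a base at their ends, but no match in a kinesin promoter did. TTTGAA occurred in 10 of 13 mitotic promoters (76.9%) and 1 of 13 transport promoters (7.69%), that of KIF5B, against 15.4% of all 27305 promoters and 9.21% of 10427 promoters of protein-coding genes tested. CCAAT occurred in 11 of 13 mitotic promoters (84.6%) and 3 of 13 transport promoters (23.1%), against 35.7% of all promoters. Both were present in 9 mitotic promoters (69.2%), against 6.08% of all. In mitotic promoters the matches of TTTGAA began between base -55 and base 31 from the start, counted with 1 as the first transcribed base, and those of CCAAT between -202 and -21. Mitotic partner genes held TTTGAA in 8 of 13 windows, transport partner genes in 0 of 18, and dynein and dynactin genes in 0 of 20.

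The 120 bases before the start are shown for mitotic kinesins with TTTGAA (KIF4A, KIF11, KIF23 and KIF15), for those with the largest falls but no TTTGAA (KIF22, KIF2C and KIF20A), and for KIF3B and KIF16B, the transport kinesins with the largest rises. Capitals mark TTTGAA or its reverse complement TTCAAA, and CCAAT or its reverse complement ATTGG. In GRCh38.p14 they lie at chrX:70289984-70290103 (plus strand), chr10:92593010-92593129 (plus strand), chr15:69414229-69414348 (plus strand), chr3:44761674-44761793 (plus strand), chr16:29790631-29790750 (plus strand), chr1:44739717-44739836 (plus strand), chr5:138178992-138179111 (plus strand), chr20:32277531-32277650 (plus strand) and chr20:16573449-16573568 (minus strand), in the order given below.
KIF4A: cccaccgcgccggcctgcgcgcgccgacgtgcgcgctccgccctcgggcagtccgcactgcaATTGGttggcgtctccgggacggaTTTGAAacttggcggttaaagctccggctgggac
KIF11: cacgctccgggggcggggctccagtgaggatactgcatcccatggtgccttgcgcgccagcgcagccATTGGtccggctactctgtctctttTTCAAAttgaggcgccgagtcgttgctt
KIF23: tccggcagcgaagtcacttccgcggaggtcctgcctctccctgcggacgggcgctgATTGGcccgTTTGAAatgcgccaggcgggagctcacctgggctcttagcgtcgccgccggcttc
KIF15: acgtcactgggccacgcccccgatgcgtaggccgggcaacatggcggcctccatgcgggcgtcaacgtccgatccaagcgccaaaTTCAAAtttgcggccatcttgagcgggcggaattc
KIF22: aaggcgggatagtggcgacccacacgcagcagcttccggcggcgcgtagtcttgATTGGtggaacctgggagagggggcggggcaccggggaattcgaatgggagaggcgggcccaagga
KIF2C: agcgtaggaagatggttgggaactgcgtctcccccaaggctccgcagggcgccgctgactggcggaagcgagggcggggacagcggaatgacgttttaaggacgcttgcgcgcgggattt
KIF20A: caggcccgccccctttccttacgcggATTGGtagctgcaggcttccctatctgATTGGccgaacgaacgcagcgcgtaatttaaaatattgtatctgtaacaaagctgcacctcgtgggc
KIF3B: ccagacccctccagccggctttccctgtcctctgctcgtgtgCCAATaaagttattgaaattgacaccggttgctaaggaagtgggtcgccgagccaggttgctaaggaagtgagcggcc
KIF16B: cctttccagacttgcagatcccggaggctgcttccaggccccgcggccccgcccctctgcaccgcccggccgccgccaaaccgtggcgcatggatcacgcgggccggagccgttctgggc

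KIF4A, KIF11 and KIF23 carried a CCAAT box a short way upstream of TTTGAA, and KIF15 held TTTGAA alone. The 3 tested mitotic kinesins without TTTGAA in the window, KIF22, KIF2C and KIF20A, had log2 fold changes of -0.62 to -0.39. All 3 were called lower. The 9 with TTTGAA had log2 fold changes of -0.46 to 0.07, and 4 of them were called lower. Over all genes tested 28.2% were called lower. A match is a description of the sequence and not a shown binding site. Only exact letters were searched, so the lack of a match does not show that the element is absent. The KIF22 stretch holds ttcgaa, a near match to TTTGAA that was not counted, and whether it acts as the element was not tested.

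Transport kinesins were mostly higher. All 3 heavy chains of the conventional kinesin, kinesin-1, were called higher, against 28% of all genes tested, although KIF5B turned lower once length and GC trends were removed. Kinesin-1, a motor of heavy chains (KIF5) and light chains (KLC), carries mitochondria, vesicles and other cargo along axons. KIF5A and KIF5C are largely neuronal and KIF5B is found in most tissues. KIF5C was at 163, 168 and 169.5 CPM in the SMN1-labelled libraries, against 120.1, 122 and 117 CPM in the control libraries, 1.39-fold higher (edgeR log2 fold change 0.48 with SE 0.035, adjusted p = 5.31e-11). KIF5A, mutated in hereditary spastic paraplegia and amyotrophic lateral sclerosis, was at 124, 123 and 119.7 CPM in the SMN1-labelled libraries, against 101, 103 and 99.1 CPM in the control libraries (edgeR log2 fold change 0.27 with SE 0.035, adjusted p = 5.39e-07). KIF5B was at 116, 117 and 116 CPM in the SMN1-labelled libraries, against 97.5, 106 and 105 CPM in the control libraries (edgeR log2 fold change 0.18 with SE 0.037, adjusted p = 2.75e-04). No libraries overlapped between groups for the 3 genes, but KIF5B was lower with those trends removed within each library (log2 fold change -0.09, adjusted p = 0.0491), while KIF5A and KIF5C stayed higher. On the authors' FPKM KIF5B was the main heavy chain in both groups. It was at 19.1, 19.4 and 19.3 FPKM in the SMN1-labelled libraries, against 15.3, 16.6 and 16.1 FPKM in the control libraries. On CPM KIF5C was the highest of the 3 in both groups. Its exonic length in GENCODE v29 is 9215 nt, against 6261 nt for KIF5A and 5877 nt for KIF5B. No source used here names the lengths behind FPKM, so the order and the shares of FPKM rest on unknown lengths. Of the summed heavy chain FPKM, KIF5C made up 14.1%, 14.4% and 14.8% in the SMN1-labelled libraries, against 12.7%, 12.2% and 11.9% in the control libraries, the groups again apart. The summed heavy chain level was 33.6, 34.0 and 33.8 FPKM in the SMN1-labelled libraries, against 26.2, 27.7 and 26.6 FPKM in the control libraries.

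Of the 4 light chain genes, whose proteins link the heavy chains to cargo, 2 were lower and 0 higher. Over all genes tested the shares were 28.2% and 28%. KLC1, the main neuronal light chain, was at 324, 303 and 303 CPM in the SMN1-labelled libraries, against 332, 343 and 344 CPM in the control libraries, 1.09-fold lower (edgeR log2 fold change -0.13 with SE 0.035, adjusted p = 0.00298). KLC2, also widely expressed, was at 128, 119.7 and 125 CPM in the SMN1-labelled libraries, against 121, 117 and 120.2 CPM in the control libraries (edgeR log2 fold change 0.06 with SE 0.036, adjusted p = 0.199). The KLC1 call was lost on FPKM (limma adjusted p = 0.318 on log2(FPKM + 1)) and after the length and GC correction (log2 fold change -0.06, adjusted p = 0.16), and KLC2 passed as higher under those same settings. Other genes cover 40.6% of the annotated exonic length of KLC1, XRCC3 on the opposite strand the most, and no source used here gives the strand setting of the counting. KLC3, known mainly from sperm, was at 1.97, 1.66 and 1.19 CPM in the SMN1-labelled libraries, against 2.497, 2.88 and 2.03 CPM in the control libraries (edgeR log2 fold change -0.62 with SE 0.18, adjusted p = 0.0063). That call was lost without the second control library (adjusted p = 0.0534), after the length and GC correction (adjusted p = 0.0603), on log2(FPKM + 0.1) (limma adjusted p = 0.0513) and on unfiltered log2(FPKM + 1) (limma adjusted p = 0.142). ERCC2 and other genes cover 14.6% of its exonic length. KLC4 did not pass (edgeR log2 fold change -0.08 with SE 0.044, adjusted p = 0.132), although it was called lower without the first SMN1-labelled library (adjusted p = 0.0185). The summed light chain level was 47.6, 44.4 and 45.7 FPKM in the SMN1-labelled libraries, against 44.8, 44.3 and 44.0 FPKM in the control libraries, with overlap. The ratio of light to heavy chain FPKM was 1.42, 1.30 and 1.35 in the SMN1-labelled libraries, against 1.71, 1.60 and 1.65 in the control libraries. That ratio did not overlap between groups, which gives p = 0.1 in a two-sided exact permutation test, the smallest that 3 against 3 libraries allow.

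**Figure D3:**
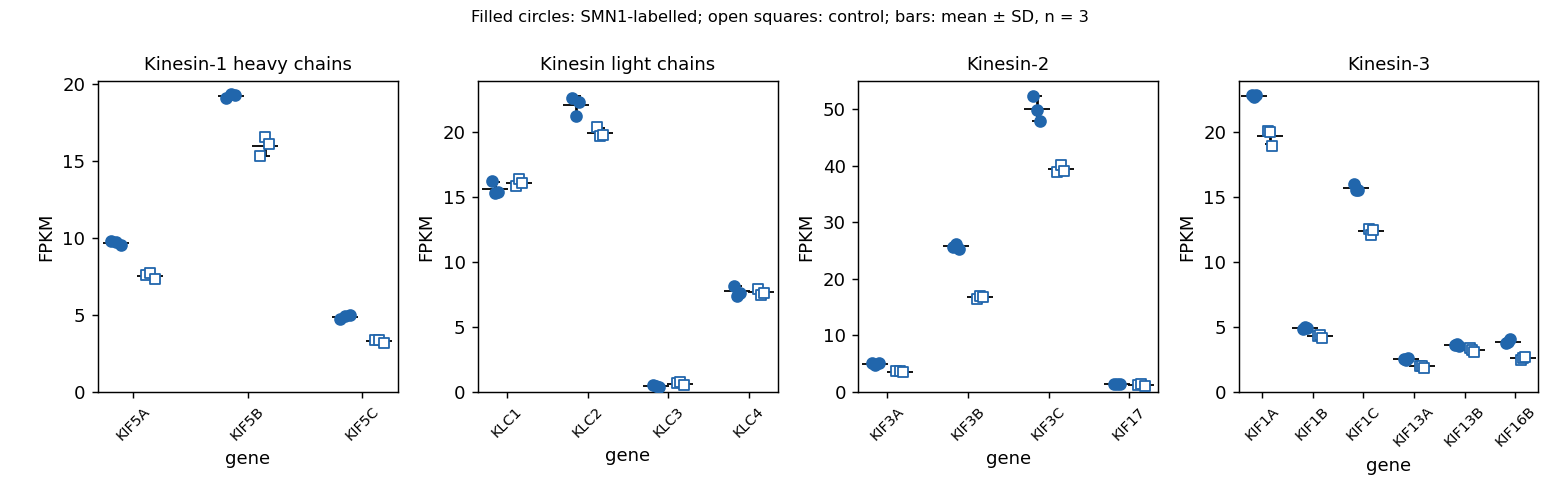
FPKM per library of kinesin-1 heavy chains, light chains, kinesin-2 and kinesin-3 genes, with SMN1-labelled libraries as filled circles left of control libraries as open squares, and mean ± SD (n = 3). KIF3C is the highest of the transport kinesins, at 48.0 to 52.4 FPKM in the SMN1-labelled and 38.9 to 40.2 FPKM in the control libraries, and the light chains are the panel in which the groups lie closest.

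The kinesin-2 genes KIF3A, KIF3B and KIF3C were all called higher, against 28% of all genes tested. KIF3A pairs with KIF3B or KIF3C and, with the adaptor KIFAP3, carries vesicles in axons and, as the KIF3A-KIF3B pair, builds cilia. KIF3B had the largest rise of the 41 members tested, at 162, 165 and 158 CPM in the SMN1-labelled libraries, against 109, 112 and 113 CPM in the control libraries, 1.45-fold higher (edgeR log2 fold change 0.53 with SE 0.035, adjusted p = 8.05e-12). It lies at chr20:32277664-32335011, plus strand in GENCODE v29. KIF3A was at 35.6, 33.9 and 35.2 CPM in the SMN1-labelled libraries, against 26.6, 27.2 and 25.9 CPM in the control libraries (edgeR log2 fold change 0.39 with SE 0.047, adjusted p = 1.92e-07). KIF3C, enriched in neurons, was at 347, 329 and 314 CPM in the SMN1-labelled libraries, against 270.3, 279.6 and 277 CPM in the control libraries (edgeR log2 fold change 0.26 with SE 0.037, adjusted p = 2.01e-06). All SMN1-labelled libraries lay above all control libraries for each gene, and KIF3A was no longer past the threshold after the length and GC correction (log2 fold change 0.11, adjusted p = 0.0524). Summed over the 3 genes, the level was 83.1, 80.9 and 78.2 FPKM in the SMN1-labelled libraries, against 58.9, 60.8 and 59.1 FPKM in the control libraries. KIF3B took a larger share of that sum, 30.9%, 32.4% and 32.3% in the SMN1-labelled libraries, against 27.9%, 27.9% and 28.3% in the control libraries. KIFAP3 was called higher too (edgeR log2 fold change 0.19 with SE 0.057, adjusted p = 0.00586), as the partner gene of this motor. KIF17, a homodimeric kinesin-2 of dendrites and cilia, did not pass (edgeR log2 fold change 0.08 with SE 0.10, adjusted p = 0.552), but was called higher after that correction (log2 fold change 0.25, adjusted p = 0.0451).

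Kinesin-3 genes carry synaptic vesicle precursors, dense core vesicles and endosomes. In 5 of 6 cases they were called higher, against 28% of all genes tested, and KIF16B rose the most. KIF16B, the motor of early endosomes, was at 29.7, 30.4 and 32.1 CPM in the SMN1-labelled libraries, against 20.6, 21.6 and 22.7 CPM in the control libraries, 1.42-fold higher (edgeR log2 fold change 0.51 with SE 0.053, adjusted p = 1.87e-08). KIF1A, the neuronal motor of synaptic vesicle precursors and dense core vesicles, was at 423, 417 and 418 CPM in the SMN1-labelled libraries, against 391, 389 and 376 CPM in the control libraries (edgeR log2 fold change 0.12 with SE 0.033, adjusted p = 0.00252). KIF1B, whose isoforms carry mitochondria or synaptic vesicle precursors, was at 90.0, 92.04 and 90.2 CPM in the SMN1-labelled libraries, against 83.9, 85.9 and 82.4 CPM in the control libraries (edgeR log2 fold change 0.11 with SE 0.036, adjusted p = 0.0127). The groups did not overlap for these genes, yet the call of KIF1B was lost without the second SMN1-labelled library (adjusted p = 0.0546) or without the third control library (adjusted p = 0.0512), and after the length and GC correction its sign turned (log2 fold change -0.03, adjusted p = 0.541). KIF1C, which moves integrin-bearing and dense core vesicles, was higher (edgeR log2 fold change 0.25 with SE 0.036, adjusted p = 2.29e-06). So was KIF13A, a motor of recycling endosomes (edgeR log2 fold change 0.27 with SE 0.051, adjusted p = 9.15e-05), which was not called after that correction (log2 fold change 0.10, adjusted p = 0.0901). KIF13B was at 41.1, 42.1 and 39.8 CPM in the SMN1-labelled libraries, against 40.7, 38.3 and 37.4 CPM in the control libraries and did not pass (edgeR log2 fold change 0.08 with SE 0.045, adjusted p = 0.134). On log2(FPKM + 1) it was called higher (limma adjusted p = 0.027).

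The C-type kinesins outside mitosis went the other way. KIFC3, a minus-end motor linked to cell junctions and the Golgi, was at 11.5, 10.9 and 12.9 CPM in the SMN1-labelled libraries, against 16.1, 15.5 and 15.1 CPM in the control libraries (edgeR log2 fold change -0.41 with SE 0.071, adjusted p = 2.90e-05). KIFC2, a neuronal C-type kinesin, was at 21.2, 18.5 and 19.04 CPM in the SMN1-labelled libraries, against 23.4, 24.4 and 23.1 CPM in the control libraries (edgeR log2 fold change -0.28 with SE 0.059, adjusted p = 3.07e-04). Both were lower without overlap between groups, and KIFC2 was no longer called after the length and GC correction (log2 fold change -0.08, adjusted p = 0.244). Exons of other genes, FOXH1 foremost, cover 17.8% of the KIFC2 exonic length.

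Adaptors and regulators of transport kinesins moved mostly with the motors: of 22 tested, 13 were higher and 3 lower, against 28% and 28.2% of all genes tested, with a median log2 fold change of 0.19. SPAG9, also called JIP4, which links kinesin-1 to vesicles and lysosomes, was at 162, 168 and 166 CPM in the SMN1-labelled libraries, against 113, 114 and 111 CPM in the control libraries (edgeR log2 fold change 0.56 with SE 0.035, adjusted p = 3.37e-12). TRAK2, which ties mitochondria to kinesin-1, was at 53.2, 53.0 and 54.6 CPM in the SMN1-labelled libraries, against 36.3, 37.8 and 34.6 CPM in the control libraries (edgeR log2 fold change 0.56 with SE 0.043, adjusted p = 1.28e-10). FEZ1, a kinesin-1 adaptor of axons, was lower at 52.6, 52.0 and 50.2 CPM in the SMN1-labelled libraries, against 70.2, 73.6 and 74.0 CPM in the control libraries (edgeR log2 fold change -0.49 with SE 0.040, adjusted p = 2.91e-10). These 3 had the smallest p of the list. Of 22 genes tested of dynein and dynactin, the motor of the return direction, 9 were higher and 6 lower, against 28% and 28.2% of all genes, the share called lower being near that of all genes; the median log2 fold change was 0.04. The light intermediate chain gene DYNC1LI2 was 1.50-fold higher (edgeR log2 fold change 0.59 with SE 0.038, adjusted p = 6.37e-12), the dynactin gene DCTN5 1.30-fold (edgeR log2 fold change 0.38 with SE 0.036, adjusted p = 3.46e-09) and the intermediate chain gene DYNC1I2 1.26-fold (edgeR log2 fold change 0.34 with SE 0.037, adjusted p = 4.60e-08).

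All 5 kinesins of microtubule dynamics and signalling were called, 3 lower and 2 higher, against 28.2% and 28% of all genes tested. KIF26A, a kinesin without motor ATPase activity that dampens signalling by RET in mouse enteric neurons, had the lowest log2 fold change of the 41 members tested, at 26.2, 23.5 and 25.0 CPM in the SMN1-labelled libraries, against 44.3, 42.3 and 40.7 CPM in the control libraries, 1.71-fold lower (edgeR log2 fold change -0.77 with SE 0.050, adjusted p = 7.15e-12). Its relative KIF26B, which acts in cell adhesion during kidney development in mice, was at 88.3, 83.4 and 81.1 CPM in the SMN1-labelled libraries, against 117, 124 and 117 CPM in the control libraries (edgeR log2 fold change -0.50 with SE 0.039, adjusted p = 1.46e-10). KIF21B, which limits microtubule growth in neurons, was at 8.48, 8.56 and 7.79 CPM in the SMN1-labelled libraries, against 12.02, 13.6 and 12.3 CPM in the control libraries, 1.52-fold lower (edgeR log2 fold change -0.61 with SE 0.078, adjusted p = 4.68e-07). The groups of the 3 genes were clearly apart, and the calls held under every alternative run. KIF21A, the more abundant relative of KIF21B, was higher at 127, 125 and 128 CPM in the SMN1-labelled libraries, against 112, 112 and 116 CPM in the control libraries (edgeR log2 fold change 0.16 with SE 0.035, adjusted p = 3.26e-04). Its direction turned after the length and GC correction (log2 fold change -0.10, adjusted p = 0.0184). KIF2A, which trims microtubules in growing neurites and at spindle poles, was at 30.5, 32.7 and 33.8 CPM in the SMN1-labelled libraries, against 25.2, 28.1 and 25.8 CPM in the control libraries (edgeR log2 fold change 0.29 with SE 0.053, adjusted p = 5.38e-05), without overlap, but was not called after that correction (log2 fold change 0.08, adjusted p = 0.171). IPO11 and other genes cover 8.97% of its exonic length.

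Of the 5 ciliary kinesins tested 1 was called, against 56.2% of all genes tested. KIF9, a motor of motile cilia and sperm tails, was at 3.73, 4.59 and 3.74 CPM in the SMN1-labelled libraries, against 5.56, 5.21 and 5.65 CPM in the control libraries, 1.35-fold lower (edgeR log2 fold change -0.43 with SE 0.11, adjusted p = 0.00197), and 17.9% of its exonic length is shared with other genes, KIF9-AS1 foremost. With limma on unfiltered log2(FPKM + 1) it was not called (adjusted p = 0.0673). KIF7, a regulator of Hedgehog signalling at the cilium tip, was the most abundant of the class at 9.44, 8.78 and 8.50 FPKM in the SMN1-labelled libraries, against 9.02, 8.29 and 7.92 FPKM in the control libraries, and did not pass on CPM (edgeR log2 fold change -0.01 with SE 0.049, adjusted p = 0.939), but was called higher after the length and GC correction (log2 fold change 0.15, adjusted p = 0.00525). KIF24, KIF27 and KIF6 had log2 fold changes of -0.18, 0.36 and -0.13 with SE 0.10, 0.18 and 0.19, and none passed. KIF24 was called lower after the length and GC correction (log2 fold change -0.25, adjusted p = 0.0437) and without the second SMN1-labelled library (adjusted p = 0.0207), and KIF27 higher without the third SMN1-labelled library (adjusted p = 0.0344). KIF19 had 3 to 7 reads in the SMN1-labelled and 6 to 9 reads in the control libraries. KIF25 had 3 to 7 reads in the SMN1-labelled and 7 to 13 in the control libraries, and KIF12 had 0 to 2 reads in either group; these 3 were not tested. Without a filter on low counts KIF25 was called lower (log2 fold change -1.33, adjusted p = 0.0305), as it was without the third control library (log2 fold change -1.53, adjusted p = 0.0113). KIF19 was not called without the filter (adjusted p = 0.126).

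Within each library the mitotic sum was set against the transport sum. Summed over the 13 mitotic members, the level was 192, 199 and 199 FPKM in the SMN1-labelled libraries, against 240.3, 241 and 239 FPKM in the control libraries. Summed over the 19 transport members, it was 225, 219 and 218 FPKM in the SMN1-labelled libraries, against 182, 185 and 180.0 FPKM in the control libraries. The mitotic sum was the larger one in each control library and the smaller one in each SMN1-labelled library. Their ratio was 0.852, 0.908 and 0.912 in the SMN1-labelled libraries, against 1.32, 1.30 and 1.33 in the control libraries. On CPM the ratio was 0.352, 0.374 and 0.374 in the SMN1-labelled libraries, against 0.526, 0.521 and 0.532 in the control libraries, again without overlap. Both ratios had p = 0.1 in the two-sided exact permutation test, the smallest possible here. The mitotic sums mainly follow the 5 abundant genes that fell. The sum of all FPKM values was 279585 to 280450 in the SMN1-labelled and 308575 to 313782 in the control libraries, so FPKM is not on quite the same scale in both groups.

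**Figure D4:**
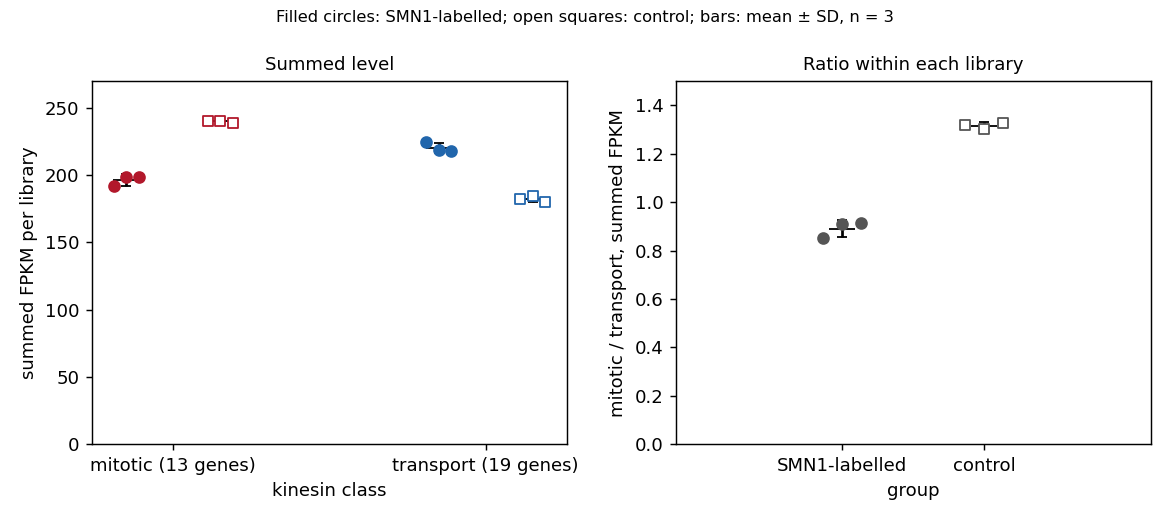
Left, FPKM summed over mitotic and over transport kinesins in each library; right, the ratio of these sums; SMN1-labelled libraries are filled circles left of control libraries as open squares, with mean ± SD (n = 3). The ratio lies at 0.852 to 0.912 in SMN1-labelled and 1.30 to 1.33 in control libraries.

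Base composition moved with the fold changes among the members. Over all genes with annotation the log2 fold change had a Spearman correlation of -0.43 with GC content and 0.34 with exonic length (15663 genes, which are not independent). Among the 12 mitotic kinesins tested the correlation with GC content was -0.87 and with length 0.80, and among the 19 transport kinesins -0.78 with GC content and 0.14 with length; members share the libraries and this series-wide trend. The 7 mitotic kinesins that fell had transcripts of 41.2 to 58.9% GC, such as KIF22 at 58.9% and KIFC1 at 57.9%, and the 5 not called had 34.2 to 42.3%. The 11 transport kinesins that rose had 37.8 to 61.3% GC and the 4 that fell 57.9 to 68.1%. With smooth trends of length and GC content removed within each library, 10 mitotic kinesins were lower and 0 higher, and 9 transport kinesins were higher and 2 lower. Of all 15663 genes in that fit 25.1% were lower and 22.7% higher. KIF11 (log2 fold change -0.32, adjusted p = 2.32e-06), KIF23 (log2 fold change -0.27, adjusted p = 3.33e-05), KIF14 and KIF20B then passed as lower, and KIF18B no longer did (log2 fold change -0.09, adjusted p = 0.213). The median log2 fold change after the correction was -0.31 over mitotic and 0.11 over transport kinesins, against 0.00 (-0.0036) over all genes.

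**Figure D5:**
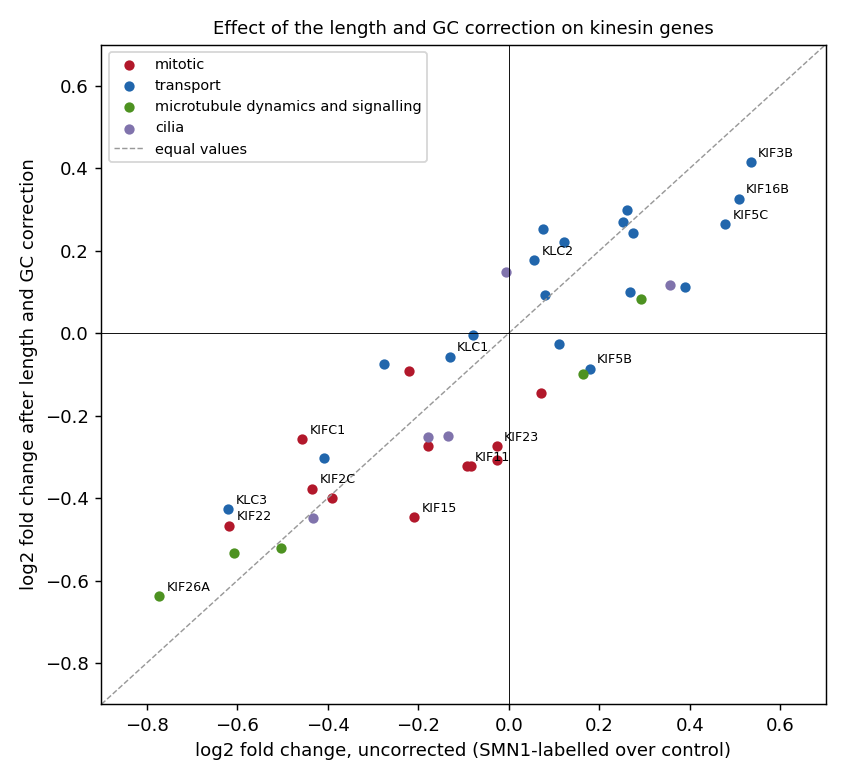
Log2 fold change of each tested kinesin after (vertical) against before (horizontal) removal of length and GC trends; the dashed line marks equal values. KIF11 and KIF23 move down to -0.32 and -0.27, KIF5B crosses to below 0, and KIF3B and KIF16B stay above 0.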

How the data were processed

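Messenger RNA from 6 libraries of SH-SY5Y cells was measured, 3 SMN1-labelled and 3 control. Per the labels' protocols, DNase-treated RNA went into a stranded mRNA library kit and was sequenced as paired reads of 150 nt. The submitters' processing notes name HISAT2, DESeq2 and the build GRCh38. No source used here names the counter, its annotation and strand setting or the length behind FPKM. The authors deposited raw read counts per gene and FPKM rounded to 2 decimals.

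Counts were tested with edgeR 4.0.16 in R 4.3.3 (TMM, default filterByExpr, quasi-likelihood test with the group as the only term, two-sided, Benjamini-Hochberg over all 15829 genes tested). Fold changes are SMN1-labelled over control, and SE was taken as the size of the log2 fold change divided by the root of its F statistic. A count of 3 reads corresponds to 0.0721 to 0.103 CPM. Chi-square over its degrees of freedom was 2.41 to 4.12 for pairs of libraries within a group and 54.3 to 61.8 for pairs across groups, and no pair was counted as 1 library. On simulated counts for 15829 genes of this comparison the test found 77.6% of 67 changes of 1.5-fold and 88.1% of 67 changes of 2-fold. It called 10 of 15629 unchanged genes. Far fewer genes changed there than the 56.2% called in the data, and changes below 1.5-fold were not simulated. These rates therefore need not hold for the data.

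Exonic length, GC content of the longest transcript and coordinates came from GENCODE v29 (GRCh38), and promoters from RefSeq (GRCh38.p14). Members, role classes, partner lists and tests were chosen with earlier results of these data known. Values in every library are given for the 5 called members of a class with the smallest p and every called member past a log2 fold change of 0.58. They are also given for 15 members named by role whatever their p, and for CENPE. KIF15, KIF18B, KIFC2, KIFC3, KIF13B, KIF7 and CDK1 fall outside these rules and were added after their values were seen. Partner lists give their 3 called genes with the smallest p. KIFAP3, named beside the kinesin-2 genes, falls outside that rule. Alternatives were DESeq2 1.42.0, limma-voom (limma 3.58.1), DESeq2 size factors, upper-quartile factors, no filter, a minimum of 1 CPM in at least 3 libraries, a replicate block, the omission of single libraries, limma on log2(FPKM + 1) and log2(FPKM + 0.1) at 0.5 FPKM or more in at least 3 libraries, log2(FPKM + 1) without a filter, and splines on length and GC content with 5 degrees of freedom each, fitted within each library and used as an offset. No protein sequences were used here.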

Additional observations from a re-analysis of the deposited data

How the results depend on the processing

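Over 17 alternatives the count of mitotic kinesins called higher stayed at 0 and of those called lower was 4 to 10, and 9 to 13 transport kinesins were called higher and 1 to 5 lower. KIF2A, grouped outside the mitotic class although it also acts at spindle poles, was called higher in 16 of the 17. On FPKM, 4 mitotic kinesins were lower by either pseudocount and without a filter, the transport kinesins lower numbered 2 on log2(FPKM + 0.1) and 1 on log2(FPKM + 1) without a filter, and 8 of all members were then lower. The genes called lower over all genes numbered 2965 on log2(FPKM + 1), 2963 on log2(FPKM + 0.1) and 2883 without a filter, and 62.6% of calls were higher on log2(FPKM + 1), against 49.8% on counts; summed FPKM was lower in the SMN1-labelled libraries. After the length and GC correction 2 transport kinesins were lower. Leaving out each library gave 7 mitotic kinesins lower, 10 to 11 transport kinesins higher and 3 to 5 lower, and 14 to 16 members lower and 12 to 14 higher in all. Among called members the correction reversed KIF1B (-0.0267), KIF21A (-0.10) and KIF5B (-0.0866), and among those not called KIF18A (-0.15) and KIF7 (0.15, then called higher). KIF23 turned to 0.0485 on log2(FPKM + 1), with or without a filter, and 0.0599 on log2(FPKM + 0.1). KIF14 (0.0286), KIF20B (0.0011), KLC4 (0.0081) and KIF7 (0.0748) also turned above 0 on log2(FPKM + 1), and none of them was called there. On that scale 4 of 12 mitotic kinesins lay above 0, against 1 on counts. KIF14, KIF7 and KIF17, none of them called, turned when some single libraries were left out. The cause of these turns was not tested. Of 35 named genes 22 kept direction and side of the threshold in every alternative. With the replicate block 7 mitotic kinesins were lower, 11 transport kinesins higher and 4 lower, and 4382 genes lower and 4326 higher in all. Same-numbered libraries did not deviate together (correlations 0.0053, 0.013 and 0.0030), and not every library correlated best with its own number. Low members limit precision: SE was 0.13 for KIF18A and 0.18 for KLC3, against 0.033 for KIFC1.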
